A study of Mus musculus with 6 samples.

Results

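Expression of 8 genes of the visual cycle and of retinoid transport, Rpe65, Rlbp1, Lrat, Rgr, Rdh5, Rdh10, Stra6 and Ttr, was followed in mouse choroid and retinal pigment epithelium (RPE) cells after culture. The 8 genes were taken by name from a table of 52636 genes, and all 8 were present in it. The question was which of them were still measured in RPE cells after culture, and whether their levels differed with the Dram2 genotype. UMI (unique molecular identifier) counts, which count RNA molecules, came from 25428 cells in 6 samples, 3 from Dram2 wt/wt mice and 3 from Dram2 ko/ko mice. All mice were male C57BL/6J animals of 12 to 16 months, and the ko allele was a constitutive CRISPR/Cas9 deletion that removed a coding exon of Dram2, so every cell of those mice carried it. The cells were grown in culture before capture, after lens, anterior segment and neural retina had been removed, and libraries were made with the 10x 3′ kit. Dram2 ko/ko replicate 3 was the only sample of batch 2, so its batch and any property of that sample cannot be told apart. Nothing in the labels ties a sample to a number of animals, so p-values measure the spread between these samples only.

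The visual cycle returns the light-bleached chromophore, all-trans retinal, to its 11-cis form. In the RPE, LRAT esterifies retinol, RPE65 converts the ester to 11-cis retinol, RDH5 oxidizes it to 11-cis retinal, and RLBP1 (CRALBP) binds the 11-cis forms, while the opsin RGR takes part in a light-driven route. STRA6 takes up retinol from its blood carrier RBP4, which travels with transthyretin (TTR), and RDH10 oxidizes all-trans retinol, also outside the eye as the first step of retinoic acid synthesis.

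The upstream sequences of Rpe65, Rlbp1 and Rgr are shown because, of the 6 genes with an entry, these 3 held a match to a motif searched. They were thus chosen by the match. They are the 250 bases before the RefSeq start site on GRCm38.p6, written 5′ to 3′ on the strand of the gene. Capitals mark a match, on either strand, to TAATCC (a bicoid-type homeobox word of the kind OTX2 binds, read as GGATTA on the other strand) or CATGTG (an E-box of the kind MITF binds, read as CACATG).
Rpe65, chr3:159598931-159599180, plus strand: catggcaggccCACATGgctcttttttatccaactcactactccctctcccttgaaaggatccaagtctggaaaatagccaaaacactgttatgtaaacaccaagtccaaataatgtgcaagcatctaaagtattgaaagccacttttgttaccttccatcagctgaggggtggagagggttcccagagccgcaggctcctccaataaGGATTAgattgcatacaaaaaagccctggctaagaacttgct
Rlbp1, chr7:79387028-79387277, minus strand: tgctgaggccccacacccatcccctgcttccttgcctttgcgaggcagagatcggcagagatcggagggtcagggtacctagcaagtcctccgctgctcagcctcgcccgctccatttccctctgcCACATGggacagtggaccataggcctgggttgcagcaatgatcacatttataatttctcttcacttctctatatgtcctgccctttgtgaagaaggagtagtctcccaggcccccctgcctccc
Rgr, chr14:37049015-37049264, minus strand: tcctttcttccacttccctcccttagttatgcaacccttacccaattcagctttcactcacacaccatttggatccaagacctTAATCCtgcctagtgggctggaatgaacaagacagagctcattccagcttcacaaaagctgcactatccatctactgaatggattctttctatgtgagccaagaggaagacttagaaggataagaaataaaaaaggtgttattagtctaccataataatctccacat
TAATCC lay 42 to 37 bases before the start of Rpe65 and 167 to 162 bases before that of Rgr. CATGTG lay 239 to 234 bases before the start of Rpe65 and 124 to 119 bases before that of Rlbp1. Among all 32851 windows of this length, 6.25% held TAATCC and 12.3% held CATGTG. The words CACGTG (6.02% of windows) and AGGTCA (14.0%), searched in the same way, were in none of the 9 windows of the 6 genes that had an entry. The single windows of Lrat and Rdh5 and the 4 of Stra6 held none of the 4 words. Rdh10 and Ttr had no entry. These matches describe letters only.

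The RPE type, as named in the deposited annotation, held 1492 of 25428 cells. Per sample these were 56, 539 and 152 cells of Dram2 wt/wt replicates 1, 2 and 3, and 68, 102 and 575 cells of Dram2 ko/ko replicates 1, 2 and 3. Total UMIs per sample were 96808998 to 122746184, of which RPE cells held 39650361 in all. Checked against 18 RPE markers that exclude the 8 genes, 12 had their highest mean in the RPE type. The transcription factor gene Otx2 was at 87.4 ± 19.8 CPM (counts scaled to the same total of UMIs for each sum of cells) and the keratin gene Krt18 at 710.3 ± 316.0 CPM (SD, n = 6). Of the genes of mature RPE, the pigment genes Tyrp1 (0.505 ± 0.264 CPM) and Pmel (0.387 ± 0.202 CPM) and the ion channel gene Best1 (0.196 ± 0.230 CPM) were low. Levels of the other pigment genes among the 18 markers are not reported here. Photoreceptor markers summed to 0 to 3.44 CPM in the RPE cells of a sample over 11 genes, with Rcvrn at 0.0685 CPM on average. Of the 11 genes, 4 had their highest mean in the RPE type. The part of photoreceptor RNA in the results was not tested. Müller glia markers summed to 107.3 to 163.5 CPM over 7 genes, and 4 of the 7 had their highest mean in the RPE type. Glul, also an RPE transcript, made 118.6 ± 23.8 CPM of this sum and Dkk3 15.3 ± 21.7 CPM, while Aqp4 was at 0.0246 CPM. The part of glial cells in the results was not tested. Fibroblast markers summed to 234.4 to 958.8 CPM over 6 genes in RPE cells, and their part in the results was not tested. The 4 melanocyte markers, 1 of them highest in RPE, summed to 15.4, 6.89 and 14.1 CPM in the RPE cells of the Dram2 wt/wt replicates and to 18.9, 17.2 and 3.14 CPM in those of the Dram2 ko/ko replicates. They were lowest in Dram2 ko/ko replicate 3 and then Dram2 wt/wt replicate 2, as were Ttr, Lrat, Rgr, Rlbp1 and Rdh10 and the RPE markers Krt18 and Otx2, and their part was not tested. Mlana made 8.56 ± 4.54 CPM of this sum and Sox10 3.11 ± 2.01 CPM. Over all cells of a sample, Dram2 itself was at 33.4, 39.6 and 38.1 CPM in the Dram2 wt/wt samples and at 30.7, 28.3 and 30.1 CPM in the Dram2 ko/ko samples. A 3′ tag lies outside the deleted part, so this level does not check the labels.

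UMIs of all 8 genes were found in RPE cells in culture, from 17 of Rpe65 and 22 of Stra6 to 1098 of Rgr, 1787 of Rdh10 and 2829 of Rdh5. Among the 8 cell types, 7 of the 8 genes had their highest mean level in RPE, and Rdh10 was highest in Fibroblast 2. Because the cell types were named from clusters of these same counts, differences between types are given as a description, without a test. A CPM value compares 1 gene across samples or types. It is not corrected for transcript length, and levels of different genes are not ranked against each other.

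**Figure D1:**
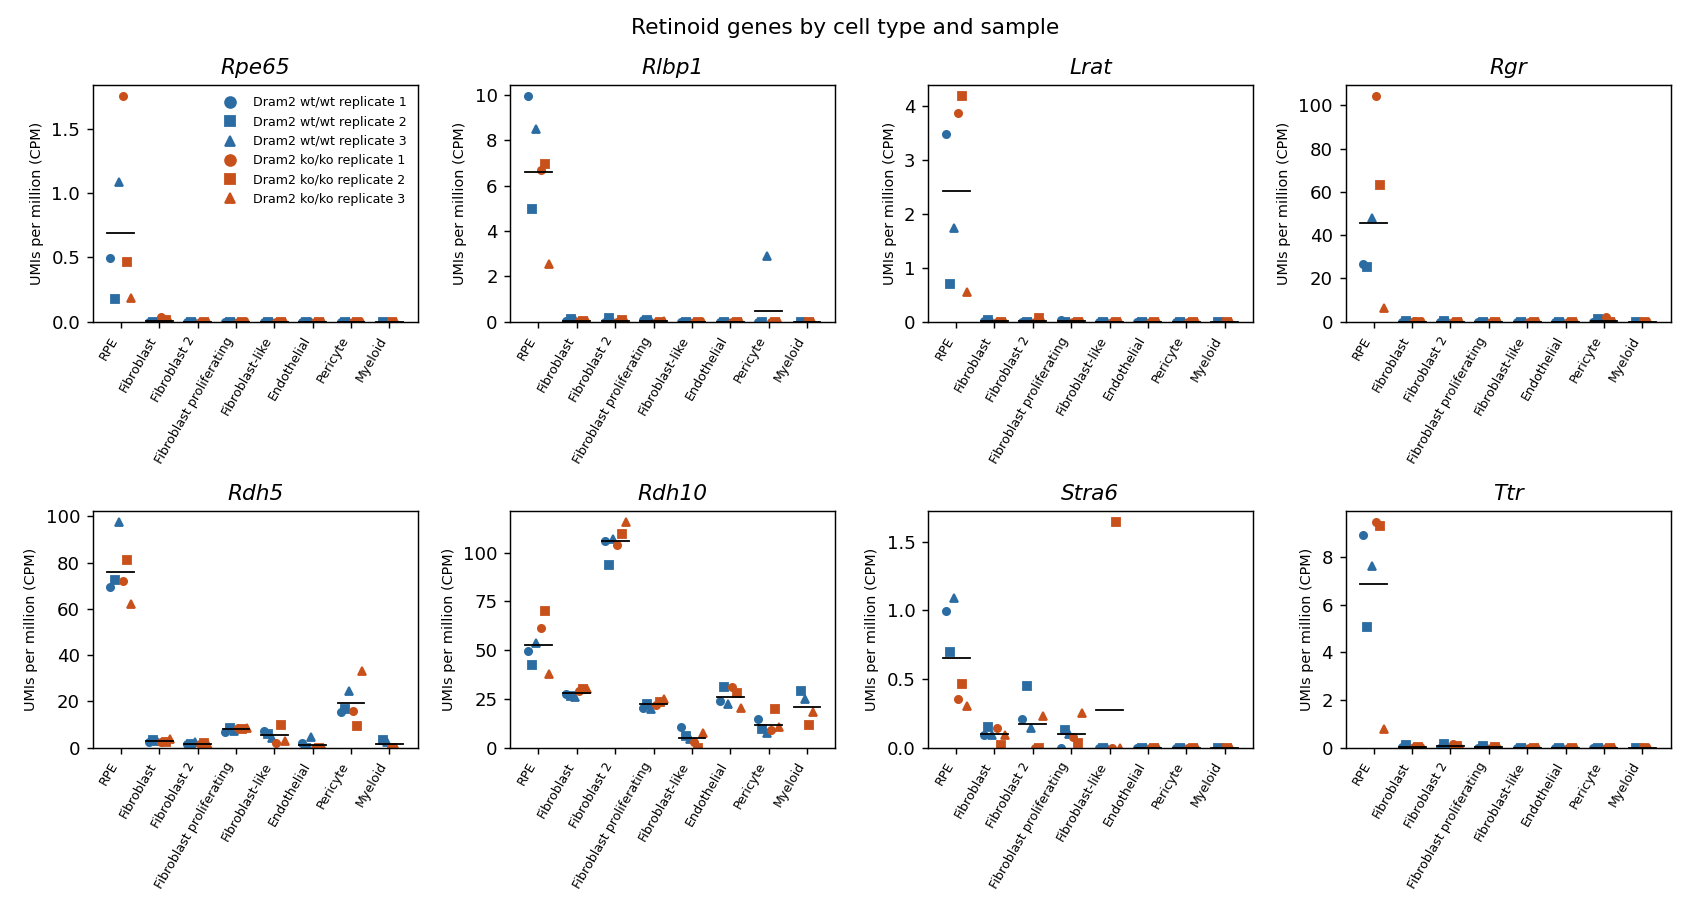
Level of each gene in CPM (linear axes from 0) by cell type; points are samples with 10 or more cells of the type, blue for Dram2 wt/wt and orange for Dram2 ko/ko, and black lines are means over samples. Rdh5 averaged 75.8 CPM in RPE, Rdh10 was highest in Fibroblast 2 at 105.9 CPM, and Rpe65, Lrat, Rgr and Ttr in RPE lay above every sample of the next type.

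Rpe65, the isomerohydrolase that makes 11-cis retinol (chr3:159599175-159625321, plus strand), was close to the limit of detection. RPE cells held 17 of its 20 UMIs in the whole table. Its level in RPE was 0.497, 0.174 and 1.09 CPM in Dram2 wt/wt replicates 1 to 3, and at 1.75, 0.464 and 0.181 CPM in Dram2 ko/ko replicates 1 to 3. The highest and lowest samples thus differed widely within a genotype, and the groups overlapped. Every RPE library had at least 1 UMI, and no sample had more than 5. The other 3 UMIs were in Fibroblast cells, a mean of 0.00956 ± 0.0166 CPM (n = 6). No UMI was found in the other 6 types. At their depth a count of 0 allows up to 0.0166 CPM in Fibroblast proliferating, but up to 0.835 CPM in Endothelial and 1.36 CPM in Myeloid cells, so a level like that of RPE (0.693 ± 0.617 CPM, n = 6) was not detectable at the depth of these small types.

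Lrat, which makes the retinyl esters that RPE65 uses (chr3:82892579-82903973, minus strand), had 52 of its 57 UMIs in RPE cells. Its level was 3.48, 0.698 and 1.74 CPM in the Dram2 wt/wt samples and at 3.86, 4.18 and 0.543 CPM in the Dram2 ko/ko samples. The lowest value of each genotype came from Dram2 ko/ko replicate 3 and Dram2 wt/wt replicate 2, the samples with the most RPE cells. The mean in RPE, 2.42 ± 1.63 CPM (n = 6), stood beside 0.0111 CPM in the type with the next highest mean, Fibroblast 2, and the samples of the 2 types did not overlap.

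Rlbp1, the carrier protein of 11-cis retinoids (chr7:79374870-79387048, minus strand), was at 9.94, 4.97 and 8.48 CPM in the Dram2 wt/wt samples and at 6.67, 6.97 and 2.53 CPM in the Dram2 ko/ko samples. RPE cells held 192 of its 221 UMIs. Pericyte cells had the next highest mean, 0.484 ± 1.18 CPM, from 2 UMIs in a single sample, and this sample lay above the lowest RPE sample. In Fibroblast cells the mean was 0.0474 ± 0.0339 CPM.

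Rgr, the opsin of the RPE and Müller glia (chr14:37034909-37048964, minus strand), varied widely between samples. Its level was 26.8, 25.1 and 48.0 CPM in the Dram2 wt/wt samples and at 104.2, 63.2 and 6.16 CPM in the Dram2 ko/ko samples. Dram2 ko/ko therefore held both the 2 highest values and the lowest. RPE cells held 1098 of 1150 UMIs, 95.5% of the total. The mean of 45.6 ± 34.9 CPM in RPE was 387.5 times that of Fibroblast. The next type was Pericyte, whose mean of 0.577 CPM rested on 2 UMIs, 1 in each of 2 samples.

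Rdh5, which oxidizes 11-cis retinol (chr10:128913593-128922888, minus strand), had the smallest SD relative to its mean among the 8 genes in RPE. It was at 69.6, 72.5 and 97.6 CPM in the Dram2 wt/wt samples and at 71.9, 81.3 and 62.1 CPM in the Dram2 ko/ko samples. The mean in RPE, 75.8 ± 12.3 CPM, was followed by Pericyte at 19.2 ± 8.39 CPM and Fibroblast proliferating at 7.92 ± 0.751 CPM. RPE, Pericyte and Fibroblast proliferating samples did not overlap each other. Among the types below these, Fibroblast-like (5.25 ± 2.94 CPM) overlapped its neighbours on either side, and Fibroblast lay at 2.80 ± 0.503 CPM above Fibroblast 2 at 1.63 ± 0.380 CPM without overlap. Only 51.4% of Rdh5 UMIs were in RPE cells. The gene shares 720 exonic bases, 25.6% of its own, with Bloc1s1 on the same strand, so its count is uncertain. Bloc1s1, which acts in lysosome-related organelle formation, was at 135.7 ± 13.5 CPM in RPE and 102.0 ± 11.8 CPM in Fibroblast. The part of Bloc1s1 reads in the Rdh5 values was not tested.

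Rdh10, the all-trans retinol dehydrogenase (chr1:16105774-16133734, plus strand), was present in every cell type. In RPE it was at 49.7, 42.4 and 53.7 CPM in the Dram2 wt/wt samples and at 61.4, 70.1 and 37.9 CPM in the Dram2 ko/ko samples. Fibroblast 2 had the highest mean, 105.9 ± 7.21 CPM, which was 2.02 times that of RPE (52.5 ± 12.0 CPM), and RPE was 1.86 times that of Fibroblast (28.2 ± 1.80 CPM). The samples of Fibroblast 2 and RPE did not overlap, nor did those of RPE and Fibroblast. From there down, Fibroblast, Endothelial (26.0 CPM), Fibroblast proliferating (22.2 ± 1.78 CPM), Myeloid (20.7 ± 7.64 CPM, n = 4), Pericyte (11.8 ± 4.63 CPM) and Fibroblast-like (5.12 ± 3.68 CPM) each overlapped the next. Only 7.65% of its UMIs were in RPE cells. Over the deposited fibroblast sub-clusters the mean ranged from 5.37 CPM in sub-cluster 5 to 97.4 ± 3.85 CPM (n = 6) in sub-cluster 3, leaving aside sub-cluster 8, where no UMI was found.

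Stra6, the uptake receptor (chr9:58063788-58153996, plus strand), had 22 of its 84 UMIs in RPE cells. Its level was 0.994, 0.698 and 1.09 CPM in the Dram2 wt/wt samples and at 0.351, 0.464 and 0.302 CPM in the Dram2 ko/ko samples. All 3 Dram2 ko/ko values lay below all 3 Dram2 wt/wt values, but 2 of them stood on a single UMI. The mean in RPE, 0.649 ± 0.334 CPM, overlapped that of Fibroblast-like (0.274 ± 0.671 CPM, from 1 UMI), and in Fibroblast it was 0.0976 ± 0.0477 CPM. In the deposited fibroblast sub-cluster 6, with 477 cells, the mean of Stra6 was 1.26 ± 1.95 CPM (n = 6), above that of RPE.

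Ttr, the transport partner of RBP4 (chr18:20665280-20674321, plus strand), was at 8.94, 5.06 and 7.61 CPM in the Dram2 wt/wt samples and at 9.47, 9.29 and 0.785 CPM in the Dram2 ko/ko samples. Dram2 ko/ko replicate 3 was lowest, followed by Dram2 wt/wt replicate 2, and the other 4 samples lay between 7.61 and 9.47 CPM. RPE cells held 171 of 187 UMIs, and the mean in RPE was 6.86 ± 3.40 CPM against 0.0582 CPM in the next type, Fibroblast 2.

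The share of cells with a UMI followed the same division. For this, each cell was thinned to 5000 UMIs, which left out 129 of 1492 RPE cells that were shallower. The shares pool the cells of all samples. Of the 1363 RPE cells used, 469 came from Dram2 wt/wt replicate 2 and 542 from Dram2 ko/ko replicate 3. After thinning, 22.8% of RPE cells (95% Wilson interval 20.7% to 25.1%) had a UMI of Rdh5 and 1.505% of Fibroblast cells did. For Rdh10 the shares were 17.0% (15.1% to 19.1%) in RPE and 12.8% in Fibroblast. For Rgr they were 8.44% (7.08% to 10.0%) and 0.0813%. Ttr (1.61% of RPE cells), Rlbp1 (1.47%), Lrat (0.440%), Stra6 (0.440%) and Rpe65 (0.367%) were found in few RPE cells, and in at most 0.0325% of Fibroblast cells. By sample, the share for Ttr in RPE ran from 0.185% in Dram2 ko/ko replicate 3 to 6.19% in Dram2 ko/ko replicate 2. Of Rpe65 no UMI was left in 12294 Fibroblast cells. Fibroblast cells, which should lack RPE-restricted RNA, serve as the background for free RNA, and the median depth was 22906 UMIs in RPE and 26108 in Fibroblast cells. At their own depth, 49.5% of RPE cells had Rdh5, 45.8% Rdh10, 17.2% Rgr, 9.65% Rlbp1, 7.91% Ttr, 2.55% Lrat, 1.27% Stra6 and 1.07% Rpe65. Intervals cover counting error only.

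**Figure D2:**
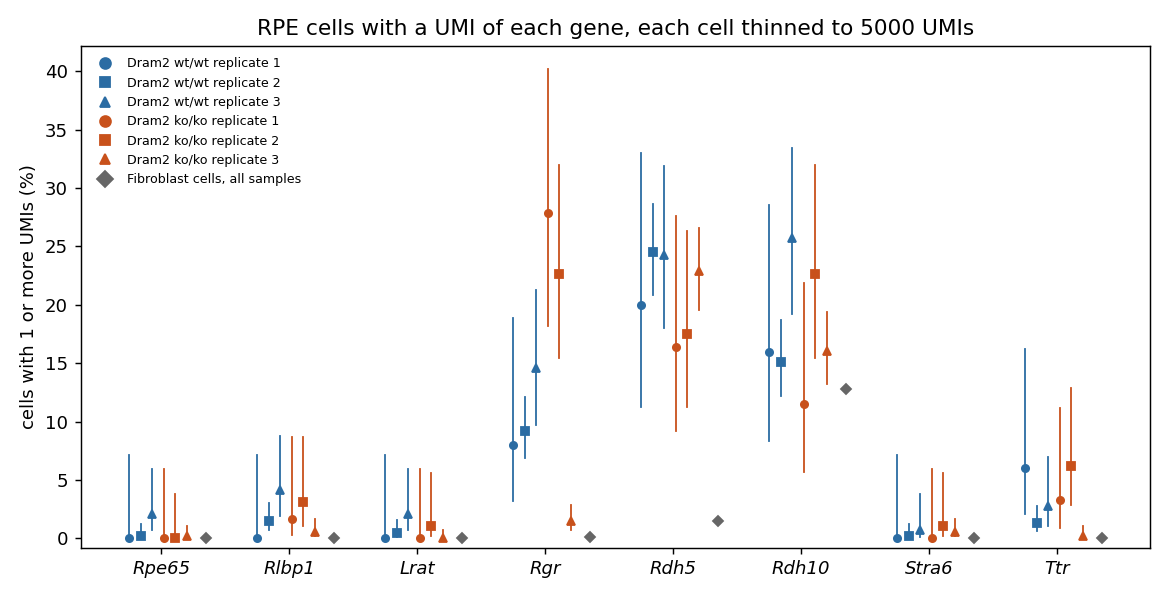
Percent of RPE cells with 1 or more UMIs of each gene after thinning to 5000 UMIs per cell; points are samples, bars 95% Wilson intervals and grey diamonds the share of Fibroblast cells over all samples. The share for Rgr ran from 1.48% in Dram2 ko/ko replicate 3 to 27.9% in Dram2 ko/ko replicate 1, while that for Rdh5 stayed between 16.4% and 24.5%.

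Rgr was concentrated in few cells. A set of 64 RPE cells had 5 or more Rgr UMIs and held 70.2% of all Rgr UMIs in the type, with up to 51 UMIs in a cell. These cells made up 20.6% of RPE cells in Dram2 ko/ko replicate 1 and 1.22% in Dram2 ko/ko replicate 3. For Rdh5, 150 cells with 5 or more UMIs held 60.8% of its UMIs, with up to 66 in a cell. For Rdh10, 103 such cells held 41.7%. The 15 RPE cells with the most UMIs of a gene held 35.1% of Rgr, 34.5% of Ttr, 18.0% of Rdh5 and 11.2% of Rdh10 UMIs. For Rlbp1 this share was 21.9%, and for Lrat, Stra6 and Rpe65, with 52, 22 and 17 UMIs, it was 55.8%, 81.8% and 94.1%. It also depends on the number of UMIs, so it does not rank the genes. Of the 64 cells, 32 had Ttr, 26 Rlbp1 (40.6%), 13 Lrat (20.3%) and 7 Rpe65 (10.9%). In the 1236 RPE cells without an Rgr UMI, 3.40% had Ttr, 6.39% Rlbp1, 1.13% Lrat and 0.405% Rpe65. The median depth was 44812 UMIs in the former and 22195 UMIs in the latter, and the part of depth in these shares was not tested. Rdh5 was found in 70.3% and 47.7% of these cells, and Rdh10 in 92.2% and 41.7%. Of all 1492 RPE cells, 1118 (74.9%) had no UMI of Rpe65, Rlbp1, Lrat, Rgr, Ttr or Stra6, 226 had a UMI of 1 of these 6 genes, 91 of 2 and 57 of 3 or more.

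The RPE type was not uniform across samples, and whether all of its cells are RPE was not tested. Of its 1492 cells, 569 held a UMI of Pax6, so the RPE means and shares above are over both kinds of cell. Pax6, a transcription factor gene of the embryonic and adult eye, was found in 397 of 575 RPE cells (69.0%) of Dram2 ko/ko replicate 3 and 150 of 539 (27.8%) of Dram2 wt/wt replicate 2. In the other 4 samples it was found in 1 to 10 cells, from 0.980% of RPE cells in Dram2 ko/ko replicate 2 to 14.7% in Dram2 ko/ko replicate 1. In Fibroblast cells the share was 0.435%. This class was set after the values had been seen and is described without a test. In Dram2 wt/wt replicate 2, cells with Pax6 had 2.23 CPM of Rgr and cells without it 37.6 CPM. In Dram2 ko/ko replicate 3 these values were 2.63 and 17.2 CPM. In the same order of samples, Rlbp1 was at 1.98 and 1.51 CPM with Pax6 and at 6.60 and 5.73 CPM without it. Ttr was at 0.990 and 0.478 CPM with Pax6 and at 7.27 and 1.74 CPM without it. All 3 genes were lower with Pax6 in both samples. All 17 UMIs of Rpe65 but 1, and all 22 of Stra6, were in cells without a Pax6 UMI. Rdh5 and Rdh10 showed no common direction. Rdh5 was at 78.7 CPM with and 69.1 CPM without Pax6 in Dram2 wt/wt replicate 2, and at 54.7 and 85.2 CPM in Dram2 ko/ko replicate 3. Rdh10 was at 38.6 and 44.4 CPM in the former and at 38.9 and 34.9 CPM in the latter. Krt18 was at 133.2 CPM with and 576.4 CPM without Pax6 in Dram2 wt/wt replicate 2. Dkk3, which codes for a secreted protein also found in Müller glia, was at 73.5 and 8.35 CPM. Other RPE markers did not all move as Krt18 did. Otx2 was lower with Pax6 in both samples (51.7 against 82.4 CPM, 49.3 against 83.2 CPM). Lhx2 was higher in both (115.4 against 100.8 CPM, 107.6 against 104.1 CPM). Sox9 and Mitf were lower in Dram2 wt/wt replicate 2 (50.3 against 72.4 CPM, 2.23 against 5.92 CPM). In Dram2 ko/ko replicate 3 they were higher (71.9 against 58.5 CPM, 2.87 against 2.74 CPM). Other markers in these classes are not reported here. The 10 cells with Pax6 of Dram2 ko/ko replicate 1 held 134.7 CPM of Rgr, more than the 93.6 CPM of the other RPE cells of that sample. Cells with a Pax6 UMI were also deeper, with a median of 28518 UMIs against 15237 UMIs, and the part of depth was not tested.

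**Figure D3:**
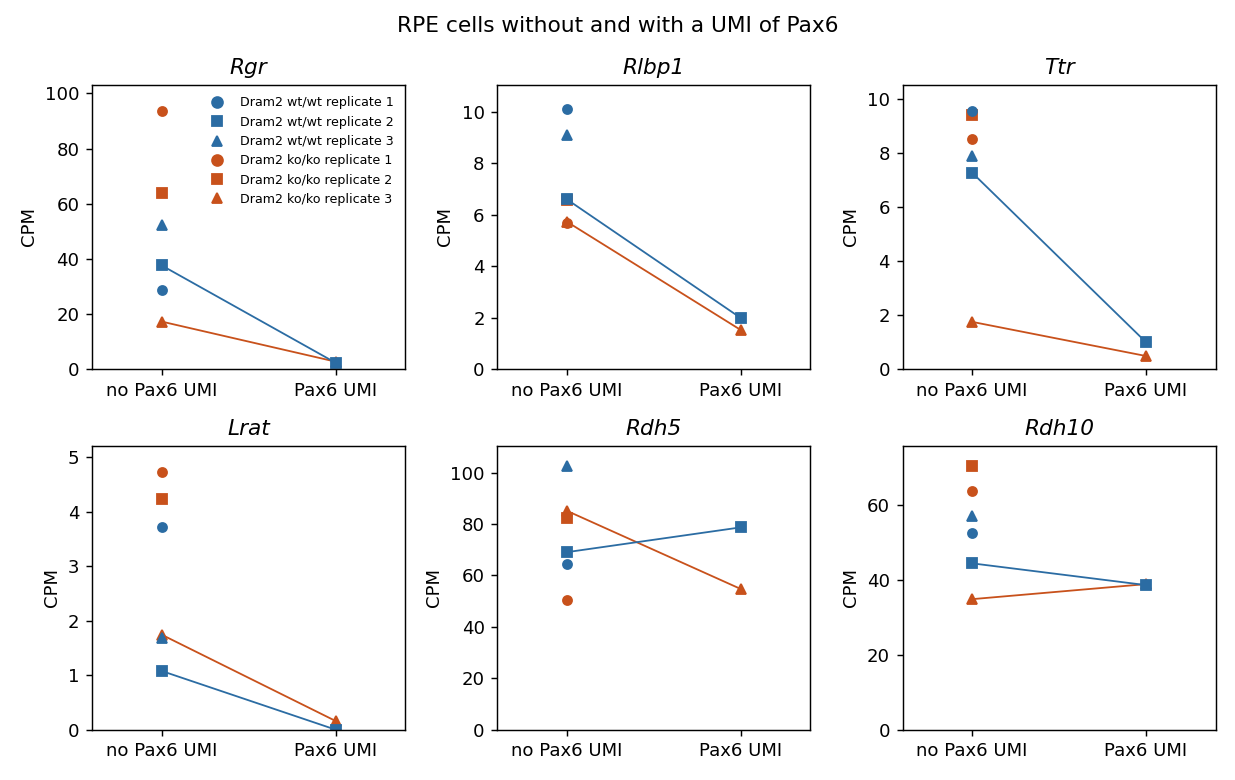
Level in CPM (linear axes from 0) of 6 genes in RPE cells without and with a UMI of Pax6. Lines join the classes of Dram2 ko/ko replicate 3 and Dram2 wt/wt replicate 2, and single points are the cells without Pax6 of the other 4 samples. Rgr, Rlbp1, Ttr and Lrat were lower with Pax6 in both joined samples, and Rdh5 and Rdh10 moved in opposite directions in the 2 samples.

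Compared between genotypes in RPE cells, none of the 8 genes passed the test. Counts were summed over the RPE cells of each sample and tested with voom-limma, with Benjamini-Hochberg adjustment over 12333 genes. No gene at all was called at an adjusted p under 0.05 (0% of tested genes). Of the 12333 genes, 573 had an unadjusted p under 0.05, a count that is not read as a result. The edgeR quasi-likelihood test also called 0 (370 unadjusted), and DESeq2 called 25, none of them among the 8. Of the 8 genes, 6 passed the filter on low counts. Their log2 fold changes, Dram2 ko/ko over Dram2 wt/wt, had a median of -0.34, beside 0.0064 over all genes tested. This median changed sign without Dram2 ko/ko replicate 3, where the 6 values lay between -0.0011 (Rdh5) and 1.87 (Lrat). Rdh5 averaged 79.9 ± 15.4 CPM over the Dram2 wt/wt and 71.8 ± 9.58 CPM over the Dram2 ko/ko samples (n = 3 each), with a fitted change of -0.16 (SE 0.20). Rdh10 was at 48.6 ± 5.74 and 56.5 ± 16.7 CPM, 0.14 (SE 0.28). Lrat was at 1.97 and 2.86 CPM, -0.25 (SE 0.96). Rgr was at 33.3 ± 12.8 and 57.8 ± 49.2 CPM, -0.42 (SE 1.03), and for both Lrat and Rgr the difference of means and the fitted value had opposite signs. The adjusted p of all 6 genes by voom-limma was 1.00.

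The largest fitted values were those of Ttr and Rlbp1, and both rested on Dram2 ko/ko replicate 3. Ttr averaged 7.20 ± 1.97 CPM over the Dram2 wt/wt and 6.52 ± 4.96 CPM over the Dram2 ko/ko samples, with a log2 fold change of -1.83 (SE 0.87). Without Dram2 ko/ko replicate 3 it was 0.71. Rlbp1 was at 7.80 ± 2.55 and 5.39 ± 2.48 CPM, with a log2 fold change of -0.88 (SE 0.48) and 0.20 without that sample. For Rgr and Lrat the value without Dram2 ko/ko replicate 3 was 1.42 and 1.87. In the fit on RPE cells without a Pax6 UMI, which was chosen after seeing the data, Rgr was at 0.17 and Lrat at 0.97. None of the alternatives run on RPE cells made any of these genes pass the threshold.

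Rpe65 and Stra6 did not pass the filter and were therefore given an exact permutation test (two-sided) over samples, whose smallest p with 3 samples against 3 is 0.1. Rpe65 averaged 0.586 ± 0.463 CPM over the Dram2 wt/wt and 0.800 ± 0.839 CPM over the Dram2 ko/ko samples (exact p = 0.8). Stra6 was at 0.926 ± 0.203 and 0.372 ± 0.0834 CPM (exact p = 0.1, the smallest possible). Among the genes tested in RPE, 5.09% had all Dram2 ko/ko values below all Dram2 wt/wt values. The lowest adjusted p over the 26 exact tests made in all cell types was 1.00.

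In the other cell types Rdh10 and Rdh5 were the only 2 of the 8 genes that passed the filter, and neither was called in any of them. The share of genes called by voom-limma in these comparisons was 0% in Endothelial and Fibroblast-like, 0.0118% in Pericyte, 0.0296% in Myeloid, 0.00503% in Fibroblast, and 0.624% and 0.222% in the proliferating and the second Fibroblast type. Rdh10 in Fibroblast was at 27.3, 26.7 and 25.9 CPM in the Dram2 wt/wt samples and at 29.0, 30.0 and 30.2 CPM in the Dram2 ko/ko samples, so the groups did not overlap. The log2 fold change was 0.16 (SE 0.076), with an adjusted p of 0.778 by voom-limma, and 4.57% of genes tested there had all Dram2 ko/ko values above all Dram2 wt/wt values. The fitted value was 0.15 (SE 0.092) in Fibroblast proliferating and 0.11 (SE 0.10) in Fibroblast 2, with overlapping groups in both. In Myeloid, with 2 samples of each genotype, both Dram2 wt/wt samples were higher in Rdh10, at 28.7 and 24.7 CPM, than the Dram2 ko/ko samples, at 11.3 and 18.0 CPM. These values rested on 2 to 17 UMIs, and 19% of tested genes lay below in the same way there. For Rdh5 in the same cells, Dram2 wt/wt replicates 2 and 3 held 2 UMIs and 1 UMI (3.38 and 2.47 CPM) and the Dram2 ko/ko replicates none.

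Over all cells of a sample, 6 of the 8 genes passed the filter and 0 were called, as was none of the 22580 genes tested (0%). Rdh10 was at 35.4, 30.9 and 29.8 CPM in the Dram2 wt/wt samples and at 38.9, 39.1 and 36.4 CPM in the Dram2 ko/ko samples, without overlap. Its log2 fold change was 0.27 (SE 0.095), with an unadjusted p of 0.020 and an adjusted p of 0.491 by voom-limma. Of all genes tested, 4.2% lay above in the same way. Rgr, Rdh5, Rlbp1, Ttr and Stra6 had log2 fold changes between -0.62 and 0.18 and adjusted p-values of 0.920 or more by voom-limma. In such whole-sample sums fewer RPE cells and less RNA per cell cannot be told apart, and RPE cells made up 1.47% to 14.8% of the cells of a sample. Fibroblast 2, where Rdh10 was highest, made up 14.1%, 7.41% and 7.96% of the cells of the Dram2 wt/wt replicates and 17.5%, 15.1% and 10.6% of those of the Dram2 ko/ko replicates. Its part in the whole-sample values of Rdh10 was not tested.

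**Figure D4:**
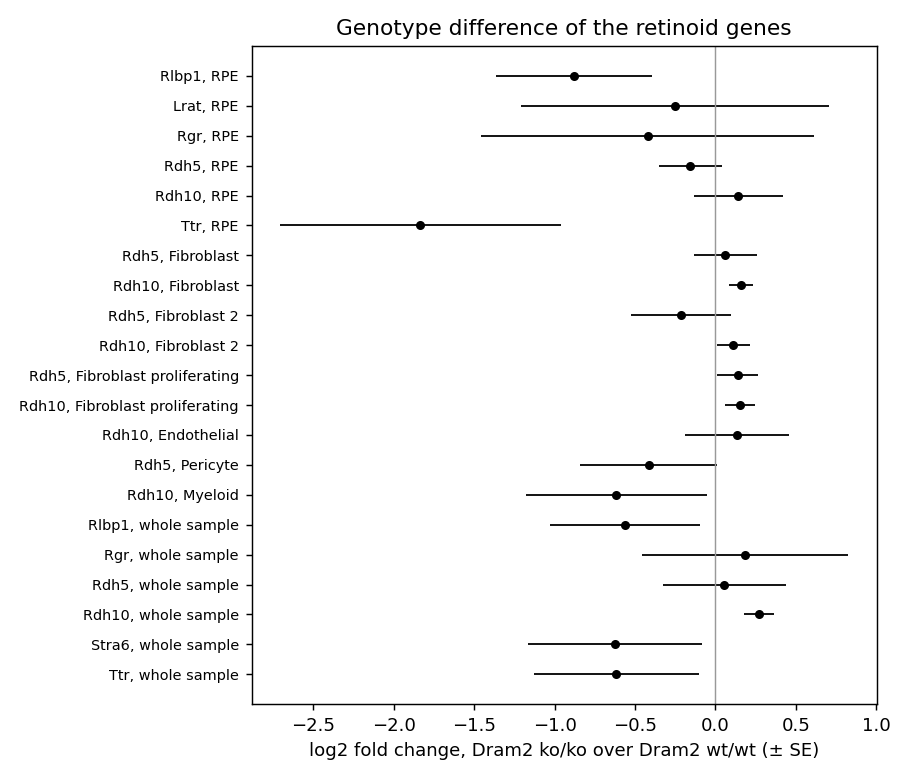
Fitted log2 fold change (Dram2 ko/ko over Dram2 wt/wt) of each gene in each cell type, and over the whole sample, where it passed the filter on low counts; bars are ± SE. Ttr in RPE was the farthest from 0 at -1.83, and none of the values passed the threshold.

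Between cycling and other RPE cells of the same sample, 4 of the 8 genes were lower in the cycling cells. A cell was taken as cycling when it held at least 2 UMIs of the proliferation genes Mki67 and Top2a together, a class that uses none of the 8 genes. They made up 302 of 575 RPE cells in Dram2 ko/ko replicate 3, 183 of 539 in Dram2 wt/wt replicate 2 and 24 of 152 in Dram2 wt/wt replicate 3. The other samples had under 10 such cells and were left out. With the sample as a factor, voom-limma called 3830 of 13560 genes (28.2%), 13.8% of those tested being lower in cycling cells. Of the 8 genes, 5 were tested, with a median log2 fold change of -0.88 beside -0.0086 over all genes.

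Rgr fell most, from 34.5 CPM in other to 13.9 CPM in cycling cells of Dram2 wt/wt replicate 2, from 59.7 to 5.09 CPM in Dram2 wt/wt replicate 3 and from 11.4 to 2.54 CPM in Dram2 ko/ko replicate 3. The value of 5.09 CPM rested on 5 UMIs. All 3 samples moved the same way, and the fitted log2 change was -1.90 (SE 0.30, voom-limma adjusted p = 0.0015). Rlbp1 went from 6.42 to 3.25 CPM, from 10.5 to 1.02 CPM (1 UMI) and from 4.003 to 1.53 CPM in the same order of samples. Its fitted log2 change was -1.49 (SE 0.35, voom-limma adjusted p = 0.013). The call was lost without Dram2 ko/ko replicate 3 (voom-limma adjusted p = 0.078) and when 1 UMI of Mki67 or Top2a sufficed for the class (-0.79, voom-limma adjusted p = 0.054). Rdh10 went from 52.8 to 30.0 CPM, from 60.3 to 29.5 CPM and from 49.2 to 30.1 CPM. The fitted log2 change was -0.88 (SE 0.11, voom-limma adjusted p = 0.00049), and the cycling cells of the 3 samples differed by less than the other cells did. Rdh5 went from 82.0 to 61.1 CPM, from 99.8 to 89.6 CPM and from 67.8 to 58.2 CPM. Its fitted log2 change of -0.37 (SE 0.095, voom-limma adjusted p = 0.018) was the smallest of those called. This call was lost without Dram2 wt/wt replicate 2 (voom-limma adjusted p = 0.257), without Dram2 ko/ko replicate 3 (0.079) and without the filter on low counts (0.071), while the fitted value stayed between -0.67 and -0.29 over all settings. Ttr went from 5.29 to 4.78 CPM, from 9.40 to 1.02 CPM (1 UMI) and from 1.19 to 0.509 CPM. It was not called (log2 fold change -0.87, SE 0.45, adjusted p = 0.178, voom-limma). It was called with the class that needs 1 UMI, to which all 6 samples contributed (-1.09, voom-limma adjusted p = 0.010). Lrat, Rpe65 and Stra6 had 6, 1 and 3 UMIs in the cycling cells of these 3 samples and were not tested.

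**Figure D5:**
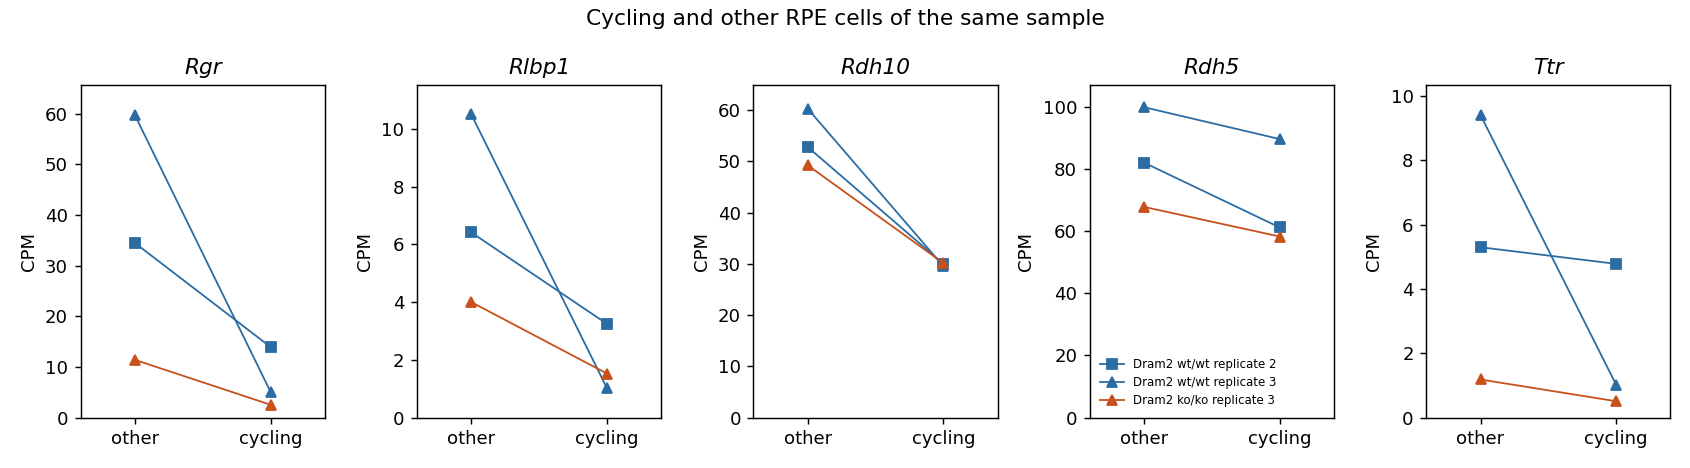
Level in CPM (linear axes from 0) of 5 genes in other and cycling RPE cells; each line joins the classes of 1 sample. Every line runs down, from 59.7 to 5.09 CPM (5 UMIs) for Rgr in Dram2 wt/wt replicate 3. Rdh5 had the fitted log2 change nearest to 0, at -0.37.

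Cycling cells were deeper, with a median of 29205 UMIs against 18271 UMIs over all samples, and the class was therefore also set after thinning each cell to 5000 UMIs. With that class, to which 2 samples contributed, the log2 changes fitted by voom-limma were negative for all 5 genes tested. They were -3.00 for Rgr, -1.80 for Ttr, -1.75 for Rlbp1, -0.76 for Rdh10 and -0.48 for Rdh5. Which of them passed the threshold with that class is not reported here. Mlana was at 1.91, 4.07 and 0.509 CPM in cycling and at 6.58, 11.6 and 4.45 CPM in other cells of the 3 samples, in the same order. Fitted values of 6 of the 18 RPE markers are given here, with the class as first set. Those of the other RPE markers are not reported here. Krt18 (-1.08), Sox9 (-0.65) and Lhx2 (-0.28) were lower in cycling cells, and Otx2 (-0.04), Mitf (-0.44) and Pax6 (-0.13) were not called. Dkk3, of the Müller glia list, had a fitted change of -0.52 (voom-limma adjusted p = 0.044). It was lower in cycling cells of Dram2 wt/wt replicate 2 (28.3 against 33.9 CPM) and Dram2 ko/ko replicate 3 (43.1 against 66.6 CPM). In Dram2 wt/wt replicate 3 it was higher, at 4.07 against 0.829 CPM, on 4 and 3 UMIs. Fitted values of the other genes of that list are not reported here. In the fit restricted to RPE cells without a Pax6 UMI, chosen after seeing the data, Rgr, Rlbp1, Rdh10 and Rdh5 were again called, with log2 fold changes of -1.60 for Rgr, -1.41 for Rlbp1, -0.86 for Rdh10 and -0.67 for Rdh5. For Rdh5 the samples did not all move this way. Without Pax6 it was at 50.6 CPM in cycling and 82.1 CPM in other cells of Dram2 wt/wt replicate 2 and at 58.0 and 105.5 CPM in Dram2 ko/ko replicate 3, but at 104.8 and 102.1 CPM in Dram2 wt/wt replicate 3. Among the cells with Pax6 of Dram2 ko/ko replicate 3, Rdh5 was higher in cycling cells, at 58.3 against 48.3 CPM.

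Other retinoid genes were taken from 6 lists with 51 genes. In RPE cells, 24 of the 51 had a mean of 5 CPM or more, and 8 had no UMI. Abca4, the retinoid flippase of photoreceptors and RPE, was the only gene of at least 5 CPM with its highest mean in RPE (6.06 ± 2.55 CPM, beside 1.43 CPM in Endothelial). Carriers included the HDL receptor gene Scarb1 (33.5 ± 9.92 CPM) and the serum carrier gene Rbp4 (15.7 ± 9.45 CPM), which was higher in Fibroblast 2 (30.0 ± 3.98 CPM). Dehydrogenase genes found in RPE included Adh5 (236.2 ± 46.0 CPM), Dhrs4 (53.2 ± 4.90 CPM) and Rdh14 (28.8 ± 3.81 CPM). Of the ester list, Dgat1 was at 17.6 ± 4.52 CPM, with 107.5 ± 38.5 CPM in Fibroblast 2, Lpl at 12.8 ± 16.2 CPM and Lipe at 2.90 ± 1.09 CPM. Among genes of retinoic acid synthesis and breakdown, Cyp1b1 was at 36.7 ± 24.1 CPM, Aldh1a1 at 30.5 ± 26.5 CPM and Aldh1a2 at 5.89 ± 3.07 CPM. In Fibroblast cells Cyp1b1 was at 212.4 ± 37.0 CPM and Aldh1a2 at 79.8 ± 8.27 CPM. The receptors Rara (28.4 ± 3.01 CPM), Rxrb (19.3 ± 4.64 CPM) and Rarb (13.3 ± 2.07 CPM) were present in RPE and in every other type. Opn1sw, a cone opsin gene, was at 0.483 ± 0.651 CPM.

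None of the 27 list genes tested in RPE cells was called between genotypes, nor was any in another cell type or over the whole sample. Between cycling and other RPE cells, 28 were tested, 3 were higher and 6 lower, with a median log2 fold change of -0.13 beside -0.0086 over all genes. With 28.2% of all tested genes called in this comparison, the share of list genes called is near the background and is not a result about the lists. Those lower in cycling cells included Crabp2, a carrier of retinoic acid (-1.49), Abca4 (-1.03), Rbp4 (-0.70), Aldh1a1 (-0.63) and Adh5 (-0.37). Higher were the lipase gene Lpl (1.43), the retinaldehyde dehydrogenase gene Aldh1a3 (1.17) and Scarb1 (0.43). Aldh1a3, for example, went from 4.01 CPM in other to 6.69 CPM in cycling cells of Dram2 wt/wt replicate 2, from 0.829 to 5.09 CPM in Dram2 wt/wt replicate 3 and from 5.04 to 13.4 CPM in Dram2 ko/ko replicate 3.

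The genes whose levels were most like those of the 8 were sought over 46 sums of a sample and cell type, by Pearson's r of log2(CPM + 1) across 24361 genes. These sums share samples, and most of the likeness lies between RPE and the rest, so r is a description. Rgr was most like Mlana (r = 0.982), Fam187b (0.976) and Cntnap2 (0.976). Ttr was most like Slc4a5 (0.996), Mlana (0.991) and Ermn (0.987), and Rlbp1 like Myo5b (0.972), Myrf (0.967) and Ermn (0.955). Rdh5 was most like Pcolce2 (0.900), Ezr (0.885) and Spon1 (0.860). Rdh10 was most like Ppp2r2a (0.856), Ddx52 (0.850) and Lats2 (0.848). Among the 8 themselves, r was 0.973 between Rgr and Ttr and 0.926 between Rgr and Rlbp1, but 0.748 between Rgr and Rdh5 and 0.302 between Rgr and Rdh10.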

How the data were processed

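The authors deposited a table of raw UMI counts per gene and cell, made with Cell Ranger 3.1.0 against mm10 with reads in exons only, and a table of each cell's sample, batch, cell type and fibroblast sub-cluster, which they had named from integrated clusters. The annotation release was not given in the sources used here. Of 52636 gene identifiers, 52403 had a symbol in the gene name table used, and positions are from GENCODE M21 (GRCm38). Cell names hold no barcodes, so barcodes shared between libraries could not be counted. All cells were kept. No doublet caller was run and no doublets were removed.

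Counts were summed per sample and cell type where 10 or more cells were present. Sums were filtered with filterByExpr, scaled by TMM factors (edgeR 4.0.16) and fitted by voom-limma (R 4.3.3, limma 3.58.1). The study's methods name edgeR size factors and voom-limma per cell type, whereas the filter, the TMM factors, the absence of covariates and of a minimum fold change were chosen here. P-values were adjusted by Benjamini-Hochberg over all genes of a comparison, with a threshold of 0.05. The fits were also run on simulated counts, with changes set only in well-counted genes and no batch. That run does not cover low genes such as Lrat. Levels are CPM with the SD over samples. Genes that failed the filter were given an exact permutation test of means (two-sided, SciPy 1.17.1). Cells with under 5000 UMIs were left out of thinned shares, and intervals are 95% Wilson intervals (SciPy 1.17.1).

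The 8 genes and all lists were chosen with earlier results of these data known. Named were the 8 genes in every type. From the lists, the rule named the up to 3 genes per list highest in RPE, those of 5 CPM or more that were highest in RPE, and those called. For each of the 8 with 5 CPM or more in some type, it also named the 3 genes most like it. Some genes that the rule names are not reported here. Alternatives were the edgeR quasi-likelihood test, DESeq2 1.42.0, other scalings, no filter, the replicate block, the batch as a covariate, a cell filter (at least 500 genes, at most 20% mitochondrial counts), leaving out the 5% of cells with the most UMIs, and leaving out each sample. The cycling class was also set after thinning and from 1 UMI. The fits on RPE cells without a Pax6 UMI, and without Dram2 ko/ko replicate 3 and Dram2 wt/wt replicate 2, were chosen after seeing the data.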

Additional observations from a re-analysis of the deposited data

Results flagged for a closer look

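Rdh10 stood out because its levels in Dram2 ko/ko and Dram2 wt/wt did not overlap in either Fibroblast or Myeloid cells, in opposite directions. In Fibroblast cells all 3 Dram2 ko/ko samples were above all 3 Dram2 wt/wt samples, by 3.08 CPM on average (29.7 against 26.6 CPM). In Myeloid cells both Dram2 ko/ko samples were below both Dram2 wt/wt samples (14.7 against 26.7 CPM), on 2 to 17 UMIs a sample. Of all genes tested, 4.57% lay above in the same way in Fibroblast and 19% lay below in Myeloid. The difference between the cell types was not tested. Samples that stand far from their own group could not be sought by a formal rule, since groups of 3 are too small for it.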

How the results depend on the processing

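Of the 8 genes, 0 were called between genotypes in any cell type under every alternative run. Between cycling and other RPE cells, 2 to 4 of the 8 were called when a sample was left out, with 2 called without Dram2 ko/ko replicate 3. Over all genes in RPE cells, DESeq2 called 25 (all lower in Dram2 ko/ko), and leaving out both samples rich in Pax6 called 3. Same-numbered samples did not deviate together (r = 0.099, -0.43 and 0.028 over whole samples, 0.26, -0.51 and -0.34 in RPE), so the numbers do not pair them, and the replicate block called 0 genes in RPE cells, with 320 at an unadjusted p under 0.05 by voom-limma.

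Fitted log2 fold changes between genotypes that changed sign, none of which passed the threshold, were as follows. With the batch as a covariate, which leaves Dram2 ko/ko replicate 3, the only sample of batch 2, with no weight in the difference, they were 0.18 for Rlbp1, 1.75 for Lrat, 1.44 for Rgr and 0.69 for Ttr in RPE, and for Rdh5 -0.36 over the whole sample and -0.14 in Fibroblast. For the other settings the cause was not tested. In RPE, Lrat was at 0.55 and Rgr at 0.80 with edgeR, at 0.60 and 0.85 with DESeq2, at 0.35 and 0.18 with the replicate block, and at 0.97 and 0.17 in cells without a Pax6 UMI. Without both samples rich in Pax6, Rgr was at 1.14 and Ttr at 0.27. Leaving out a sample at a time gave, in RPE, -1.43 to 0.20 for Rlbp1, -1.29 to 1.87 for Lrat, -1.52 to 1.42 for Rgr, -0.26 to 0.015 for Rdh5, -0.060 to 0.51 for Rdh10 and -2.43 to 0.71 for Ttr. Over the whole sample it gave -0.54 to 0.67 for Rgr and -0.36 to 0.35 for Rdh5, and for Rdh5 -0.12 to 0.20 in Fibroblast and -0.79 to 0.46 in Pericyte. Depth limits Rpe65 and Stra6, with 17 and 22 UMIs in RPE cells.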
